A study of Mus musculus with 3 samples.

Results

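Carbonic anhydrases are zinc enzymes that hydrate carbon dioxide to bicarbonate and a proton. In the eye they are known for their part in the secretion of aqueous humor by the ciliary epithelium and in the ion and fluid pumping of the corneal endothelium and the retinal pigment epithelium, and inhibitors of these enzymes are used to lower intraocular pressure. The family members differ in where the protein sits: *Car2*, *Car3* and *Car13* encode cytosolic enzymes, *Car8* a cytosolic relative without catalytic activity, *Car4* an enzyme held at the cell surface by a lipid anchor, *Car6* a secreted enzyme, and *Car12* and *Car14* enzymes that span the membrane. These 8 genes, taken by name from the 16 carbonic anhydrase genes among the 31053 genes of the deposited tables, are described here across the cell labels of the iridocorneal angle and limbus.

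Single cells came from dissected angle and limbal tissue of mice aged 6 weeks. The 2 control libraries (control replicates 1 and 2) were from *Angpt1* flox/flox mice without Cre, and the *Angpt1*ΔNC library was from *Angpt1* flox/flox;Wnt1Cre+ mice, in which Wnt1-Cre, a driver active in the neural crest, removes *Angpt1*. All mice carried the floxed alleles and came from a cross onto the albino ICR stock, and each library pooled the eyes of several animals labelled as of mixed sex. The library and not the cell is therefore the replicate, and *Angpt1*ΔNC has a single one.

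The kept cells numbered 9076 and 10160 in the controls and 6772 in *Angpt1*ΔNC, with medians of 6329.5, 6393.5 and 7444 unique molecular identifiers (UMIs) per cell. Barcodes shared between libraries numbered from 13 to 25 per pair. *Angpt1* itself, read from 3′ tags, held 2911 and 3158 UMIs in the controls and 26 in *Angpt1*ΔNC. The pools differed in sex although their labels were alike: *Xist* was found in 3 and 2 cells of the controls and in 3975 of *Angpt1*ΔNC, so genotype and sex cannot be told apart in sums over all cells. Each difference between genotypes was therefore also taken over cells typed as male, those without an *Xist* UMI that had at least 1 UMI of a Y-linked gene. They were 69.7%, 72.1% and 29.4% of the cells of the 3 libraries.

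Levels are means over cells of a gene's UMIs per 10,000 UMIs of the cell, given in the order control replicate 1, control replicate 2 and *Angpt1*ΔNC. They were compared between labels for each gene by itself and not between genes, since 3′ counts hold no common length scale. The authors' labels were made from the expression of the same cells, so the levels by label are a description without a test. Shares of positive cells (1 UMI or more) carry exact Clopper-Pearson 95% intervals, which cover counting error only.

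The 8 genes had different leading labels. *Car2* was highest in cluster 7, *Car3* in TM2, *Car13* in cluster 2, *Car8* in EC3, *Car4* and *Car6* in cluster 8, and *Car12* and *Car14* in cluster 1, among the 34 labels with at least 20 cells in both controls. In UMIs over all 3 libraries *Car6* had 28208, *Car14* 12549, *Car3* 7727, *Car13* 5089, *Car8* 3274, *Car2* 2600, *Car12* 1538 and *Car4* 629. The spread over labels ran from *Car6*, with 98.9% of its UMIs in 2 labels, to *Car13*, whose leading label held 6.39% of its UMIs.

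**Figure D1:**
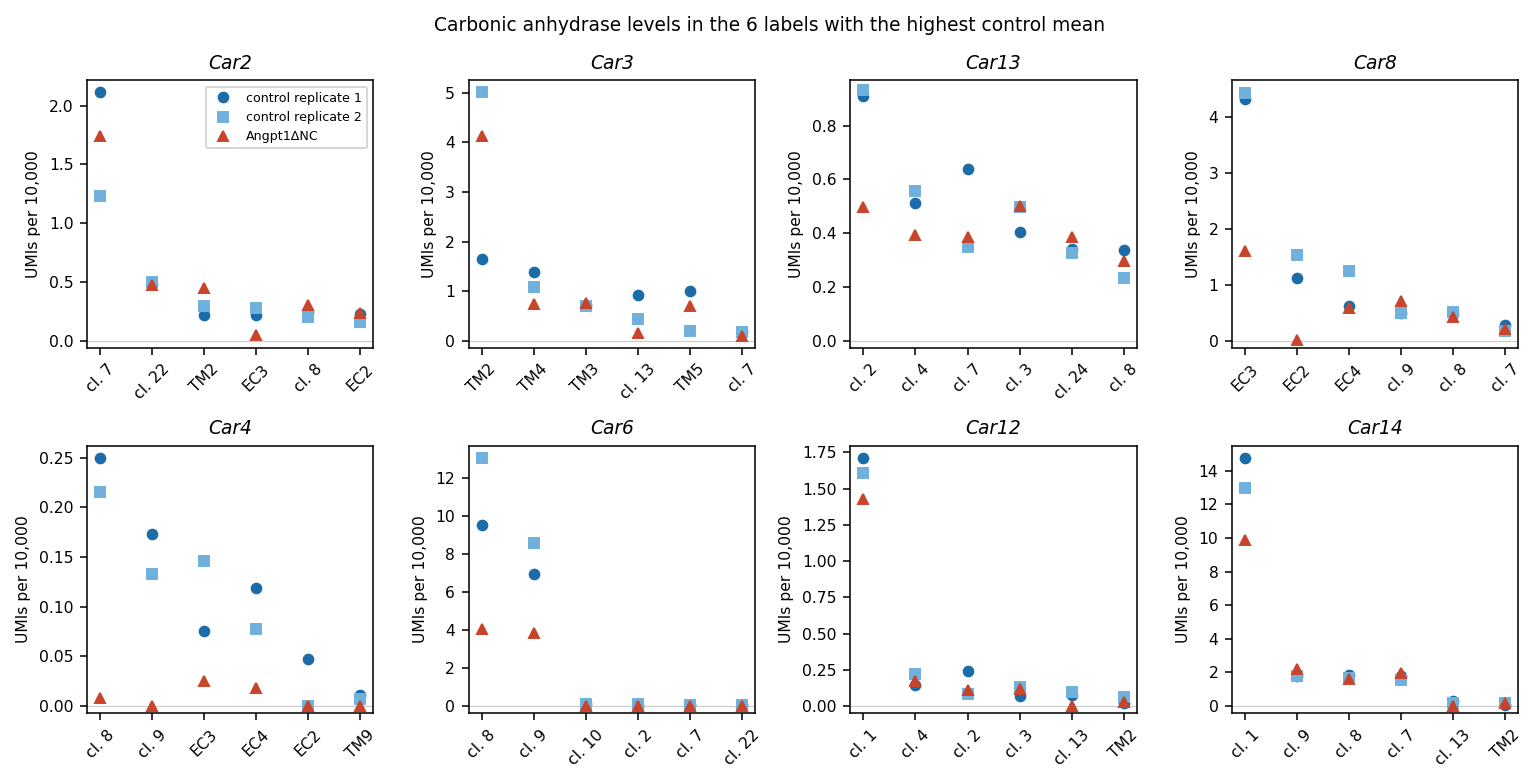
Mean level (UMIs per 10,000 UMIs of a cell, linear axes that differ between panels) of each carbonic anhydrase gene in the 6 labels with the highest control mean; each symbol is 1 library. *Car6* and *Car14* drop steeply after their first labels, whereas *Car13* declines gradually, and the *Angpt1*ΔNC triangles of *Car4* and *Car6* lie below both control symbols in clusters 8 and 9.

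*Car2*, the widespread and fast cytosolic enzyme, was highest in cluster 7, the ciliary epithelium. Its level there was 2.11, 1.23 and 1.74, and 110 of 316, 24 of 107 and 52 of 139 cells were positive (34.8%, 95% CI 29.6 to 40.3; 22.4%, 14.9 to 31.5; 37.4%, 29.4 to 46.0). The next label, cluster 22, lay well below at 0.483, 0.502 and 0.475 and did not overlap it. Below that, TM2, EC3, cluster 8, EC2 and EC4 had overlapping control ranges and control means between 0.185 and 0.259. In the limbal and corneal epithelium 1.92%, 3.66% and 4.06% of cells had a *Car2* UMI. Whether these UMIs came from the cells themselves or from free RNA of other cells was not tested.

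The ciliary epithelium is a double layer, with a pigmented sheet and a non-pigmented sheet that faces the posterior chamber. All 5 pigmented markers were detected in at least 10% of the control cells of cluster 7, with a summed level of 142, 130 and 131, against 3 of 4 non-pigmented markers with 3.79, 2.04 and 3.05. Split by which marker list had more UMIs, the cells with more pigmented markers (253, 88 and 122) held *Car2* at 1.34, 0.904 and 1.80. The cells with more non-pigmented markers were few (30, 10 and 8) and held it at 4.79, 5.19 and 2.06 on 46, 36 and 14 UMIs, above the pigmented cells in each library. Their median depths were 3685, 7924 and 7706.5 UMIs, against 8862, 7118.5 and 9427.5 in the pigmented group. A level counts shallow cells as much as deep ones, and the part of depth was not tested. The share of cells with a *Car2* UMI did not follow: it was 26.7%, 40.0% and 37.5% of these few cells, against 34.4%, 22.7% and 38.5% of the cells with more pigmented markers. The cells with equal counts of both lists (33, 9 and 9), with medians of 2432, 1384 and 5454 UMIs, held *Car2* at 5.58, 0 and 0.619. *Car14* in the same split was 1.70, 1.54 and 2.12 in the pigmented and 3.76, 2.97 and 1.80 in the non-pigmented cells, so that the order of the groups turned over in *Angpt1*ΔNC. *Car13* was nearly confined to the pigmented group of these 2, with 169 of 170, 30 of 31 and 65 of 65 UMIs.

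Hemoglobin UMIs, carried by blood, were heavy in cluster 7: the summed level of 5 red cell genes was 170, 253 and 504, and *Car2* is itself a known red cell enzyme. Without the cells that had a hemoglobin UMI, *Car2* in cluster 7 was 2.28, 1.30 and 1.57, close to the values over all cells.

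Between genotypes, 5 of the 8 genes could be tested in cluster 7 by edgeR's quasi-likelihood test on UMIs summed per library, and none was called at an adjusted p under 0.05, against 0.788% of all 9766 genes tested. *Car2* had 316, 73 and 299 UMIs and a log2 difference (*Angpt1*ΔNC minus control) of 0.67 ± 0.23 (SE; adjusted p = 0.260). *Car14* had 453, 126 and 362 UMIs, with a log2 difference of 0.32 ± 0.22 and an adjusted p of 0.592. At an unadjusted p under 0.05 *Car2* was the 1 gene of the 5, and DESeq2 called none of them. Of 20 genes tested from a list of bicarbonate, chloride and fluid transporters, 1 was called: *Slc4a4*, the sodium bicarbonate cotransporter, with 215, 78 and 34 UMIs, fell by 2.19 on the log2 scale (SE 0.32, edgeR adjusted p = 0.0333).

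In cluster 24, macrophages by 5 of 5 detected markers, *Car2* was far lower than in the ciliary epithelium, with 40, 43 and 7 UMIs and levels of 0.103, 0.0938 and 0.0240. The *Angpt1*ΔNC value lay below both controls. The edgeR log2 difference was -2.06 ± 0.48 (adjusted p = 0.0275), where 1.91% of the genes tested were called lower. DESeq2 gave a log2 difference of -2.07 with an adjusted p of 0.931, and male-typed cells gave -2.42 with an adjusted p of 0.113. Red cell genes moved as well, with a summed level of 22.03, 3.65 and 149 in this label; their part in the result was not tested.

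*Car3*, a cytosolic enzyme of low activity best known from muscle and fat, was a gene of the stromal labels. TM2, the label of corneal endothelium, held 74.5% of its UMIs over all libraries, followed by TM4 with 12.3% and TM3 with 4.97%. By library TM2 held 555 of 1300, 3353 of 4106 and 1847 of 2321 *Car3* UMIs (42.7%, 81.7% and 79.6%), so control replicate 1 had a lower share than the others. In TM2 its level was 1.65, 5.01 and 4.14, and 20.4% (95% CI 16.1 to 25.2), 30.2% (26.2 to 34.4) and 35.4% (30.2 to 40.9) of cells were positive. *Angpt1*ΔNC lay between the 2 controls in level. In TM4 it was 1.40, 1.09 and 0.747, in TM3 0.715, 0.704 and 0.752, in cluster 13 0.918, 0.433 and 0.164, and in TM5 0.998, 0.194 and 0.709. The control ranges of TM2 and TM4 did not overlap, nor did those of TM4 and TM3, but TM3, cluster 13 and TM5 overlapped as neighbours.

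These means came from few cells. The tenth of TM2 cells with the most *Car3* UMIs held 93.7%, 95.1% and 88.6% of them, and the highest single cell had 194, 455 and 371 UMIs while the median positive cell had 2, 2 and 3. Cells with 10 or more *Car3* UMIs numbered 10, 33 and 32 in TM2. The corneal endothelium list (*Cdh2*, *Atp1b1*, *Cldn10*, *Slc4a11*) was present in TM2 with a summed level of 11.8, 17.9 and 13.7, with 3 of its 4 genes detected in at least 10% of control cells, and the trabecular meshwork list had 29.1, 41.6 and 24.5 in the same label.

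*Slc4a11*, a membrane transporter typical of the corneal endothelium, went with a higher *Car3* level in TM2. TM2 cells with an *Slc4a11* UMI were 23 of 324, 49 of 504 and 48 of 325, and held *Car3* at 5.26, 38.4 and 12.1. The TM2 cells without one held it at 1.37, 1.42 and 2.77, so that *Car3* was higher beside *Slc4a11* in each of the 3 libraries. These few cells contained 38.7%, 84.4% and 65.6% of the *Car3* UMIs of TM2. They were also deeper, with medians of 9352, 10929 and 10339.5 UMIs against 6902, 7143 and 7246. *Cldn10* in the same split was 12.6, 24.3 and 13.7 with an *Slc4a11* UMI and 7.68, 11.6 and 9.11 without, whereas *Myoc*, a gene of the trabecular meshwork, was 22.7, 27.1 and 21.4 with and 21.6, 33.7 and 19.6 without. This split was chosen after the data were seen, and cells of 1 library are not replicates, so it carries no test.

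**Figure D2:**
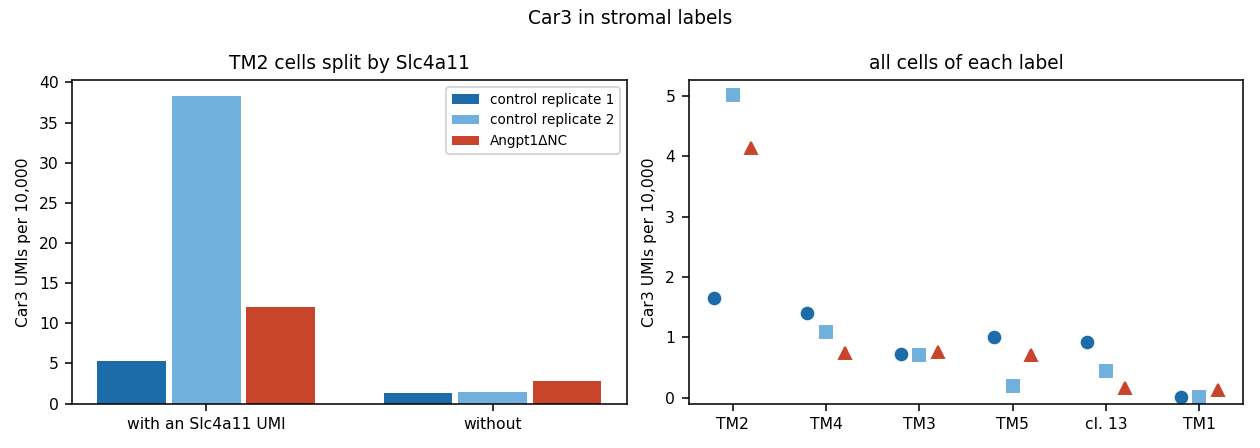
*Car3* level (UMIs per 10,000 UMIs of a cell, linear axes) in TM2 cells with and without an *Slc4a11* UMI (left, 1 bar per library) and over all cells of 6 labels (right, 1 symbol per library: circle control replicate 1, square control replicate 2, triangle *Angpt1*ΔNC). *Car3* was above 5 in each library beside an *Slc4a11* UMI and below 3 without it.

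Between genotypes *Car3* did not move one way over the stroma. In TM2 it had 555, 3353 and 1847 UMIs and a log2 difference of 0.18 ± 0.55 (edgeR adjusted p = 0.917). None of the 5 carbonic anhydrase genes tested there was called by edgeR or DESeq2, where edgeR called 1.39% of the genes tested, and 1 of the 5, *Car2*, had an unadjusted p under 0.05. Without control replicate 1 the *Car3* difference was -0.50, without control replicate 2 it was 1.45, and over male-typed cells it was -1.67 (adjusted p = 0.121). *Car2* in TM2 had 59, 118 and 131 UMIs and a log2 difference of 0.68 ± 0.24 (adjusted p = 0.232). Over all stromal labels together (TM1 to TM11), 7 of the 8 genes were tested and none was called by edgeR or DESeq2, against 8.97% of all genes by edgeR. The 1 gene of the 7 with an unadjusted p under 0.05 was *Car6*, with 43, 41 and 10 UMIs (log2 difference -1.67 ± 0.49, edgeR adjusted p = 0.0705). It passed the threshold without the filter on low counts and over male-typed cells (log2 difference -3.22), and DESeq2 gave no adjusted p. Among the male-typed *Angpt1*ΔNC cells of the stromal labels only TM9 held a *Car6* UMI, with 1 UMI. Clusters 8 and 9 held 98.9% of all *Car6* UMIs. The stromal counts were few beside the 11240, 14120 and 2848 *Car6* UMIs of the whole libraries, which were lower in *Angpt1*ΔNC as well. Whether the stromal counts were carried over as free RNA was not tested. *Car3* there had 1109, 3937 and 2247 UMIs, and its log2 difference of 0.29 became -1.66 over male-typed cells, with an adjusted p of 0.00653.

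Of the transport list 26 genes were tested over the stromal labels, with 3 called higher and 2 lower. *Aqp1*, a water channel, had 6037, 7713 and 8322 UMIs and rose by 0.68 ± 0.14 on the log2 scale (edgeR adjusted p = 0.0232). *Slc12a2*, the sodium-potassium-chloride cotransporter, had 4317, 5865 and 2507 UMIs and fell by 0.61 (SE 0.16, edgeR adjusted p = 0.0475). In TM2 none of 21 tested was called by edgeR or DESeq2, and 3 had an unadjusted p under 0.05. Among the carbonic anhydrase genes outside the 8, *Car11*, a relative without catalytic activity, had 160, 205 and 77 UMIs over the stromal labels and fell by 0.84 (SE 0.22, edgeR adjusted p = 0.0469). Neither DESeq2 (adjusted p = 0.378) nor male-typed cells (0.0978) gave this call.

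Taken label by label, the *Car3* differences pointed both ways. In TM4 it had 351, 385 and 217 UMIs and a log2 difference of -0.83 ± 0.20 (edgeR adjusted p = 0.0221), with *Angpt1*ΔNC below both controls, where 3.66% of the genes tested were called lower. DESeq2 gave 0.264 for it, and male-typed cells alone gave -1.30 with an adjusted p of 0.00227. The share of positive cells in TM4 was much the same in the 3 libraries (19.6%, 20.3% and 20.9%). The trabecular meshwork list of TM4 was also lower, with a summed level of 127, 129 and 58.7; its part in the result was not tested. In cluster 13 *Car3* had 128, 59 and 7 UMIs and a log2 difference of -2.13 ± 0.43 (edgeR adjusted p = 8.56e-05), where 1.70% were called lower, and without the filter on low counts it was -2.22 with an adjusted p of 0.625. DESeq2 gave no adjusted p, and over male-typed cells, with 81, 48 and 0 UMIs, the adjusted p was 0.534. Without control replicate 1 the difference was -1.46. In TM1 it had 1, 3 and 14 UMIs and was the single gene-label pair called higher (log2 difference 3.36 ± 1.04, edgeR adjusted p = 0.0300), where 1.95% of genes were called higher. As a plain difference of log2 summed levels with a count added, it was 2.05 without control replicate 1 and 2.89 without control replicate 2. On so few UMIs the added count makes both smaller, so they cannot be set against the fitted value. DESeq2 gave no adjusted p, and male-typed cells could not be tested there.

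*Car13*, another cytosolic enzyme, was broad, with its highest levels in epithelial labels. Its level in cluster 2 was 0.912, 0.934 and 0.496, in cluster 4 it was 0.514, 0.557 and 0.392, in cluster 7 it was 0.639, 0.347 and 0.386, and in cluster 3 it was 0.405, 0.496 and 0.501. Cluster 2 stood above cluster 4 in the controls, while clusters 4, 7 and 3 overlapped. Cluster 24 followed at 0.341, 0.327 and 0.385, then cluster 8 at 0.338, 0.234 and 0.296, cluster 9 at 0.289, 0.244 and 0.228 and EC3 at 0.323, 0.125 and 0.143. Clusters 24, 8 and 9 held 7.88%, 12.4% and 5.38% of the *Car13* UMIs and cluster 4 held 21.3%. The corneal epithelium of cluster 5, at 0.163, 0.247 and 0.267, was not among the 8 highest labels. In cluster 2, 46 of 56, 32 of 41 and 48 of 69 cells were positive (82.1%, 95% CI 69.6 to 91.1; 78.0%, 62.4 to 89.4; 69.6%, 57.3 to 80.1). Cells of this label are deep, with medians of 26906.5, 23002 and 26680 UMIs; thinned to 1000 UMIs, the share fell to 3.57%, 4.88% and 2.90%. All 6 markers of corneal and limbal epithelium were detected in clusters 2, 3 and 4.

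In clusters 4 and 5 together 6 of the 8 genes were tested between genotypes and none was called by edgeR or DESeq2, where edgeR called 5.72% of the genes tested. An unadjusted p under 0.05 was found for 1 of the 6, *Car6*, with 26, 36 and 9 UMIs. *Car13* had 544, 624 and 594 UMIs (log2 difference 0.23 ± 0.21, edgeR adjusted p = 0.538). *Car12* had 98, 156 and 186 UMIs (log2 difference 0.75 ± 0.34, edgeR adjusted p = 0.235), and it passed the threshold when no filter on low counts was applied (adjusted p = 0.0318). In cluster 2 *Car13* had 141, 82 and 102 UMIs, and its log2 difference of -0.74 ± 0.27 was not called (edgeR adjusted p = 0.210). The mix of clusters 4 and 5 differed between libraries. Cluster 4 had 414, 507 and 641 cells and cluster 5 had 575, 505 and 270. By cluster the log2 difference of *Car12* was -0.01 ± 0.23 in cluster 4 and 1.58 ± 0.61 in cluster 5, there on 9, 13 and 18 UMIs. That of *Car13* was -0.35 ± 0.19 in cluster 4 and 0.59 ± 0.27 in cluster 5. The part of this mix in the values over both clusters, for these genes and the transport genes, was not tested. Of the transport list 23 genes were tested in clusters 4 and 5. *Aqp5*, the water channel of the corneal epithelium, had 29561, 17697 and 6948 UMIs and fell by 1.52 (SE 0.25, edgeR adjusted p = 0.0134), and *Slc9a3r1*, a scaffold of ion exchangers, rose by 0.81 ± 0.16 (edgeR adjusted p = 0.0257; DESeq2 0.0593).

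*Car8*, whose protein lacks catalytic activity and binds the inositol trisphosphate receptor, was a gene of blood endothelium. Its level in EC3 was 4.32, 4.44 and 1.60, in EC2 1.12, 1.54 and 0.0184, and in EC4 0.626, 1.24 and 0.579. EC3 stood above EC2 without overlap in the controls, while EC2 and EC4 overlapped. In the SC label, the endothelium of Schlemm's canal, *Car8* had 0 UMIs in 46 cells of control replicate 1, 2 UMIs in 63 cells of control replicate 2 and 0 in 15 cells of *Angpt1*ΔNC. Taking 3 positive cells as the bound, a count of 0 of 46 cells allows a share of up to 6.52%. This bound is not the exact interval. Clusters 9 and 8 followed, with 0.5003, 0.497 and 0.705 in cluster 9 and 0.479, 0.507 and 0.416 in cluster 8, and these large clusters held 17.6% and 30.5% of all *Car8* UMIs.

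In EC3, 100 of 118, 108 of 118 and 29 of 58 cells had a *Car8* UMI, which is 84.7% (95% CI 77.0 to 90.7), 91.5% (85.0 to 95.9) and 50.0% (36.6 to 63.4). Thinned to 1000 UMIs per cell, the shares were 34.7%, 38.1% and 8.62%, in the same order. In the limbal and corneal epithelium 0.607%, 1.98% and 0.659% of cells had a *Car8* UMI. The *Angpt1*ΔNC level of EC3 lay below both controls, as did that of EC2, where 18, 46 and 1 UMIs were found in 32, 38 and 37 cells.

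Over the endothelial labels together (SC, LEC and EC2 to EC4), *Car8* had 539, 696 and 115 UMIs. It fell by 1.64 on the log2 scale (SE 0.19, edgeR adjusted p = 4.1e-08), as 1 of 5 carbonic anhydrase genes tested, and 12.9% of all genes were called in this comparison. DESeq2 gave an adjusted p of 5.24e-06. Over male-typed cells alone the log2 difference was -1.14 (adjusted p = 9.84e-06). In EC3 alone *Car8* had 471, 575 and 69 UMIs and fell by 1.48 (SE 0.22, edgeR adjusted p = 1.12e-05), where 2.45% of genes were called lower. Its male-typed *Angpt1*ΔNC cells were 10, and over male-typed cells the log2 difference was -0.49 (adjusted p = 0.417). In EC2 the summed level in *Angpt1*ΔNC was 2.78% of that of the controls (95% counting interval 0.0694 to 16.1), called lower by edgeR (adjusted p = 4.85e-09) among 2.00% of genes, and DESeq2 gave no adjusted p. The fitted log2 difference was -4.90. As a plain difference of log2 summed levels with a count added, it was -3.81 without control replicate 1 and -3.05 without control replicate 2. On so few UMIs the added count makes both smaller in size. They therefore cannot show whether the result depends on either control. In EC4 it had 50, 73 and 45 UMIs and was not called (log2 difference -0.41 ± 0.34, edgeR adjusted p = 0.584).

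Markers of the choriocapillaris, the capillary bed under the retinal pigment epithelium, moved with *Car8*. Their summed level (*Ihh*, *Plvap*, *Kdr*) was 52.6, 51.7 and 25.3 in EC3, 15.1, 14.4 and 7.03 in EC2 and 32.5, 32.2 and 27.4 in EC4. In EC3 *Ihh* was 2.20, 1.78 and 0.251 and *Plvap* 42.6, 40.5 and 20.4, while in EC2 *Ihh* was at 0 in both controls. *Cdh5*, a marker of all endothelium, was 14.9, 14.2 and 17.8 in EC3. The part of these markers in the *Car8* result was not tested, and fewer cells of a kind cannot be told apart from less RNA per cell within a label. None of 16 transport genes tested in the endothelium was called by edgeR or DESeq2, and 3 had an unadjusted p under 0.05. Over the 6 comparisons the median log2 difference of the transport list ran from -0.19 to 0.27, and that of all genes tested from -0.02 to -0.00.

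**Figure D3:**
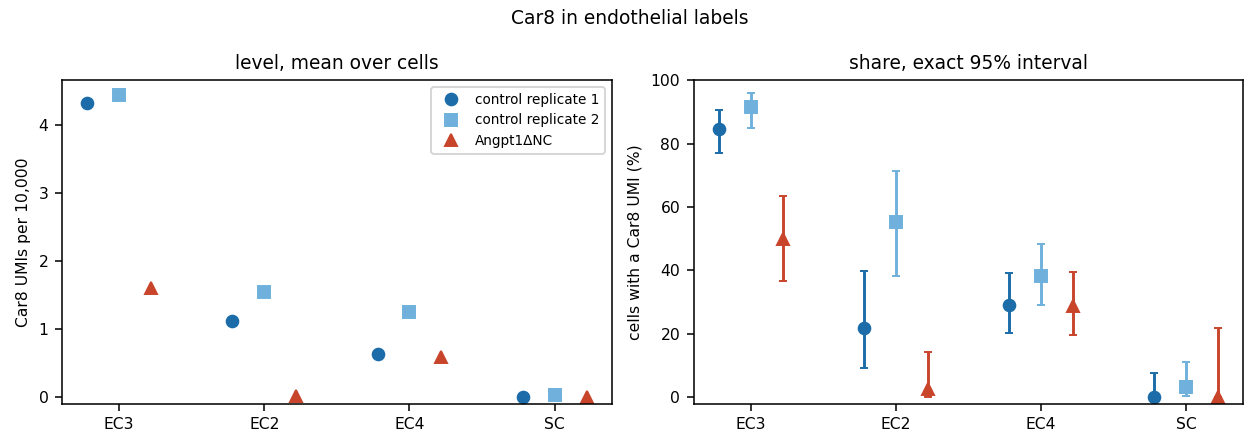
*Car8* level (left, mean over cells of UMIs per 10,000) and share of cells with a *Car8* UMI (right, percent, bars are exact 95% intervals of counting error) in 4 endothelial labels, 1 symbol per library. In EC3 the *Angpt1*ΔNC triangle is at 1.60 and 50.0%, below both controls, and in SC all libraries are at or near 0.

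*Car6*, the secreted enzyme otherwise known from saliva, was a gene of 2 labels in these tissues. Clusters 8 and 9 held 71.0% and 27.9% of its UMIs. Both expressed the 5 melanocyte markers, with a summed level of 456, 512 and 559 in cluster 8 and 300, 337 and 408 in cluster 9. The study named both melanocytes. The markers do not separate them from pigmented ciliary epithelium: that list shares most of its genes and was 461, 517 and 564 in cluster 8 and 303, 340 and 412 in cluster 9, so the clusters are called by number here. *Car6* was 9.56, 13.1 and 4.05 in cluster 8 and 6.93, 8.58 and 3.84 in cluster 9, and the third label, cluster 10, was at 0.104, 0.125 and 0.0270. Cluster 8 stood above cluster 9 in the controls. The *Car6* UMIs of clusters 4 and 5 together (26, 36 and 9) were few beside the 11240, 14120 and 2848 of the whole libraries. Whether they were carried over as free RNA was not tested.

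*Car4*, the lipid-anchored enzyme of cell surfaces, was sparse, and 90.5% of its 629 UMIs lay in the same clusters. Its level was 0.250, 0.216 and 0.00848 in cluster 8 and 0.173, 0.133 and 0 in cluster 9. EC3 (0.0751, 0.146 and 0.0257) and EC4 (0.119, 0.0780 and 0.0180) followed and overlapped with each other. The control ranges of cluster 9 and EC3 overlapped as well. In *Angpt1*ΔNC the EC3 level, on 2 UMIs, was above those of clusters 8 and 9. Among the 3 libraries the whole of *Angpt1*ΔNC held 9 *Car4* UMIs, against 333 and 287 in the controls.

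*Car4* and *Car6* are the carbonic anhydrase genes called between genotypes in clusters 8 and 9, so the sequence in front of them was examined. RefSeq windows were matched for 4 of the 8 genes (*Car4*, *Car6*, *Car12* and *Car14*; build GRCm38.p6). The line below gives the 250 bases upstream of the RefSeq start of *Car4*, the gene with the larger difference, 5′ to 3′ on the strand of the gene and in lower case. They lie upstream of the GENCODE M21 start as well.
Car4, chr11:84957504-84957753, plus strand: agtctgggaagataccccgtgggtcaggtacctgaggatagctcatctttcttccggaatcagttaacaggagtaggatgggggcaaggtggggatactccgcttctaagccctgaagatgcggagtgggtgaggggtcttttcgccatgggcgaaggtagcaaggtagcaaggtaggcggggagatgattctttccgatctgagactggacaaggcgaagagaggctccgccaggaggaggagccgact
The windows were searched for the letters CACGTG, an E-box of the kind bound by MITF and other factors in pigment cells, which read alike on both strands. They are not in the *Car4* window, and 6.02% of all 32851 windows of this length hold them. The *Car6* window holds them once, with their first base 149 bases upstream of the RefSeq start. The starts of the annotations differ for this gene: 197 of its 250 window bases lie inside *Car6* as GENCODE annotates it, and the letters begin 48 bases downstream of the GENCODE start, so the window is not printed. Another E-box, CATGTG, was searched on both strands and is in none of the 4 windows, against 12.3% of all windows. A match of letters is a description and not a binding site, and a missing match says only that these letters are not in these 250 bases.

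Both genes were lower in *Angpt1*ΔNC in both clusters. *Car6* had 8235, 9774 and 2015 UMIs in cluster 8 and fell by 1.52 on the log2 scale (SE 0.21, edgeR adjusted p = 0.00272), where 4.18% of the genes tested were called lower. In cluster 9 it had 2890, 4186 and 801 UMIs and fell by 1.10 (SE 0.17, edgeR adjusted p = 1.01e-08), where 6.34% were called lower. DESeq2 gave adjusted p of 0.0388 and 1.81e-04. Over male-typed cells the log2 differences were -1.59 (adjusted p = 0.00101) and -1.22 (adjusted p = 0.0129). The share of positive cells changed less than the level: it was 94.9%, 98.8% and 87.8% in cluster 8 and 75.2%, 83.7% and 72.6% in cluster 9. Thinned to 1000 UMIs it was 56.4%, 65.4% and 28.7%, and 41.2%, 47.7% and 25.7%.

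*Car4* had 240, 178 and 5 UMIs in cluster 8, and positive cells were 12.6% (95% CI 10.5 to 15.1), 11.3% (9.19 to 13.8) and 1.13% (0.368 to 2.62). Its summed level in *Angpt1*ΔNC was 3.70% of that of the controls (95% counting interval 1.19 to 8.70), and it fell by 4.69 on the log2 scale (SE 0.34, edgeR adjusted p = 5.00e-05). In cluster 9 it had 75, 71 and 0 UMIs. The summed level of *Car4* in *Angpt1*ΔNC there was 0% of that of the controls (95% counting interval 0 to 9.86), called lower by edgeR and by DESeq2. Taking 3 positive cells as the bound, a count of 0 of 292 cells allows a share of up to 1.03%. This bound is not the exact interval. Over male-typed cells it remained called in cluster 8 (adjusted p = 6.48e-04) and not in cluster 9 (adjusted p = 0.121), where 44 male-typed *Angpt1*ΔNC cells held 0 UMIs. In the endothelial labels together *Car4* had 15, 28 and 4 UMIs and was not called (edgeR adjusted p = 0.154).

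The other carbonic anhydrase genes of these clusters did not pass the test. *Car14* had 1519, 1220 and 811 UMIs in cluster 8 (log2 difference -0.09 ± 0.12, edgeR adjusted p = 0.730) and 708, 775 and 449 in cluster 9 (0.31 ± 0.16, adjusted p = 0.229). *Car8* had 410, 369 and 221 UMIs in cluster 8 (-0.15 ± 0.15, edgeR adjusted p = 0.582). *Car2* had 217, 157 and 169 UMIs in cluster 8 (0.53 ± 0.17, edgeR adjusted p = 0.0861). In cluster 9 the log2 difference of *Car8* was 0.47 ± 0.18, on 203, 228 and 146 UMIs, opposite in sign to cluster 8. That of *Car2* in cluster 9 was 0.53 ± 0.33, on 46, 59 and 37 UMIs. *Car13* was at 0.08 ± 0.20 in cluster 8 and -0.13 ± 0.26 in cluster 9. The summed pigment markers were not lower in *Angpt1*ΔNC. In cluster 8 *Dct* was 147, 180 and 238 and *Pmel* 187, 199 and 175, whereas *Mitf* was 1.61, 1.36 and 0.958. Red cell genes were higher there, with a summed level of 0.567, 3.97 and 26.1 in cluster 8 and 21.4, 15.4 and 152 in cluster 9. Without the cells that had a hemoglobin UMI, *Car6* in cluster 8 was 9.41, 13.1 and 3.88.

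**Figure D4:**
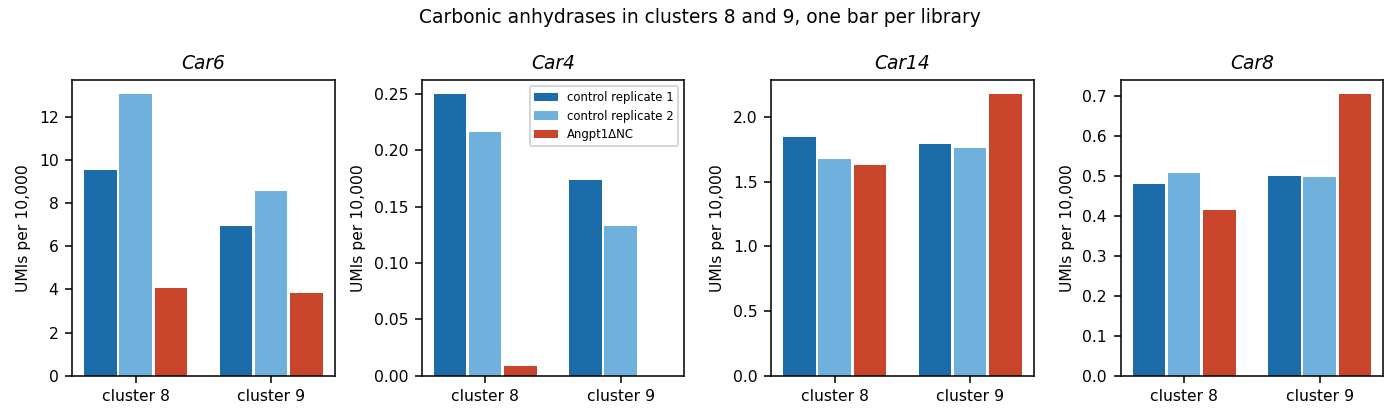
Mean level (UMIs per 10,000 UMIs of a cell, linear axes from 0 that differ between panels) of 4 carbonic anhydrase genes in clusters 8 and 9, with 1 bar per library. The *Angpt1*ΔNC bars of *Car6* and *Car4* are below both control bars in each cluster, whereas those of *Car14* and *Car8* are above them in cluster 9 and a little below them in cluster 8.

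*Car12* and *Car14*, the membrane-spanning enzymes with an extracellular active site, shared cluster 1, the retinal pigment epithelium. This label expressed 5 of 6 of its markers, with a summed level of 1147, 1011 and 424. *Car14* was 14.7, 12.95 and 9.90 there, and 97.0% (95% CI 92.5 to 99.2), 92.6% (84.6 to 97.2) and 100% (80.5 to 100) of 133, 81 and 17 cells were positive. *Car12* was 1.71, 1.61 and 1.42, with 73.7% (65.3 to 80.9), 64.2% (52.8 to 74.6) and 70.6% (44.0 to 89.7) positive. *Car14* dropped to 1.79, 1.76 and 2.18 in cluster 9, 1.85, 1.68 and 1.63 in cluster 8 and 1.81, 1.54 and 1.96 in cluster 7, labels that overlapped in that order. All 4 of these labels expressed the 5 pigment markers. *Car12* dropped to 0.147, 0.222 and 0.174 in cluster 4, which overlapped with clusters 2 and 3.

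With 17 *Angpt1*ΔNC cells, cluster 1 was the thinnest comparison, and a marker of its tissue differed between genotypes. *Rpe65*, the visual cycle isomerase that marks the tissue, was 45.6, 43.4 and 6.97, and it was found in 86.5%, 75.3% and 35.3% of cells. Fewer cells of a kind cannot be told apart here from less RNA per cell. None of 3 carbonic anhydrase genes tested was called by edgeR or DESeq2, against 11.1% of all genes by edgeR. *Car14* had 3548, 1581 and 432 UMIs (log2 difference -0.60 ± 0.26, edgeR adjusted p = 0.140), and *Car12* had 531, 226 and 64 UMIs (log2 difference -0.58 ± 0.27, edgeR adjusted p = 0.164). Both passed an unadjusted p under 0.05 (0.0273 and 0.0349). Of 17 transport genes tested, 2 were called higher and 2 lower. *Slc16a8*, the lactate transporter of this epithelium, had 5414, 2681 and 520 UMIs and fell by 1.02 (SE 0.28, edgeR adjusted p = 0.00888), and *Slc16a1*, another lactate transporter, fell by 1.09 (SE 0.28, edgeR adjusted p = 0.00610). DESeq2 gave an adjusted p of 0.0131 for the first and 0.133 for the second.

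*Car14* in cluster 13 had 23, 16 and 0 UMIs in 165, 165 and 64 cells. With a floor of 3 counts it was at least 2.22-fold lower in *Angpt1*ΔNC (edgeR adjusted p = 0.0346), and without the filter on low counts it was not called (adjusted p = 0.525). Male-typed cells gave 0.534 and DESeq2 no adjusted p.

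Over the 32 labels with at least 20 cells in each library, 86 pairs of gene and label could be tested, 11 were called and 10 of these 11 were lower in *Angpt1*ΔNC. That is 12.8% of the pairs, beside 4.92% of all genes tested over the same labels, both counted in either direction. The shares of all genes called lower are given above label by label. The median log2 difference of the 86 pairs was -0.20, and that of all genes tested lay between -0.05 and -0.00 in each label. The called pairs were spread over 8 labels, and *Car3*, *Car4*, *Car6* and *Car8* made up 9 of them. The same genes recur in labels of the same 3 libraries. The pairs are therefore not independent, and their count does not show a fall of the whole family. DESeq2 called 5 of the 11 and gave no adjusted p for 41 of the 86 pairs. Over male-typed cells 7 of 68 pairs were called, 4 of them among the 11 and the other 3 *Car13* in cluster 2, *Car14* in cluster 17 and *Car3* in TM3. The share of all genes called over these labels was not taken for DESeq2 or for male-typed cells. These counts therefore cannot show whether the carbonic anhydrase genes differ from other genes. *Car3* in TM3 had 129, 165 and 90 UMIs over all cells and a log2 difference of 0.15, which was not called. Over male-typed cells it had 107, 112 and 1 UMIs in 144, 223 and 29 cells, and the log2 difference was -4.07. The male-typed cells held 133, 73 and 9 *Car13* UMIs in cluster 2 and 19, 36 and 0 *Car14* UMIs in cluster 17.

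**Figure D5:**
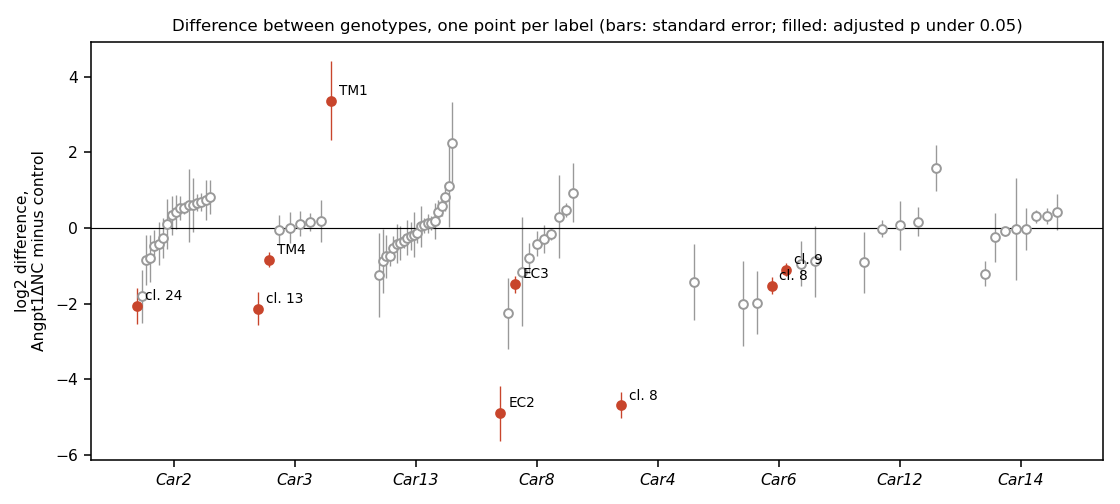
Log2 difference in level (*Angpt1*ΔNC minus control, edgeR, vertical axis) for each carbonic anhydrase gene, with 1 point per label and bars of 1 standard error; filled points passed an adjusted p under 0.05. Of the 80 points drawn 9 are filled, 8 of them below 0, and 6 pairs with no *Angpt1*ΔNC UMI are left out because their fitted value is no bound.

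The genes also differ in place. In GENCODE M21 (GRCm38) *Car13* (chr3:14641727-14663002), *Car1* (chr3:14766216-14808368), *Car3* (chr3:14863512-14872523) and *Car2* (chr3:14886273-14900770) are the 4 protein-coding genes within 259 kb, and each has its own label pattern here: *Car1*, a red cell enzyme, had 1 UMI in all 3 libraries, *Car2* led in the ciliary epithelium, *Car3* in TM2 and *Car13* in cluster 2. *Car14* lies on the same chromosome at chr3:95897768-95904691 (minus strand) and overlaps *Aph1a* on the opposite strand. *Car8* is at chr4:8143362-8239041 and *Car6* at chr4:150187015-150201332, both on the minus strand, *Car12* at chr9:66713686-66766845 and *Car4* at chr11:84957786-84966044, both on the plus strand. *Car8* overlaps 2 other annotated genes, *Gm11799* on its own strand and *Gm25355* on the opposite one.

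Of the carbonic anhydrase genes outside the 8, *Car5b*, a mitochondrial enzyme, had 2389 UMIs and was broad, with its highest level in cluster 3 (0.238, 0.207 and 0.201). *Car9*, a membrane enzyme known as a target of hypoxia signaling, had 197 UMIs, of which TM2 held 5, 82 and 20. *Car10*, an inactive relative, was highest in cluster 1 with 86, 31 and 27 of its 150 UMIs. *Car11* led in TM1 (36, 39 and 7 UMIs). *Car1*, *Car5a*, *Car7* and *Car15* had between 1 and 90 UMIs.

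The genes with the most similar pattern over the 32 labels were found by Pearson's correlation of log2(control mean level + 0.1) among 7067 genes. *Car6* was most like *Trim63* (r = 0.99), *Scrg1* and *Syt4*, and *Car14* most like *Tspan10* (r = 0.94), *Tyr* and *Trpm1*, of which *Tyr* encodes tyrosinase, the enzyme of melanin synthesis. *Car4* was most like *Rasgrp3* (r = 0.94), *Ednrb* and *Rapgef4*, and *Car8* like *Rapgef4* (r = 0.90), *Wars* and *Kank3*. *Car3* went with *2010300F17Rik* (r = 0.88), *Egfl6* and *Gm525*, *Car12* with *Esp6* (r = 0.87), *Ccl20* and *Serinc2*, *Car2* with *Med10* (r = 0.84), *Myod1* and *4932438H23Rik*, and *Car13* with *Barx2* (r = 0.75), *Grpel2* and *Krt8*. The labels share their libraries, and the values describe likeness of pattern only.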

How the data were processed

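Counting by the authors used Cell Ranger on build mm10, and cells were filtered and labelled by them with Seurat. The submitters' processing notes name Cell Ranger 2.1.1 and Seurat 3.1.3, and the deposited matrices name software 3.0.2 in their header. The deposited counts are raw UMIs per gene and cell, tested to be whole numbers, and the deposited label table lists the cells that passed the authors' quality filters and doublet removal. The authors' integrated values were not used here. No further cells were removed. The 8 genes, the other carbonic anhydrase genes, a list of 29 transport genes and the marker lists were chosen with earlier results of these data known. The genes named are those lists, the 3 genes most like each of the 8 in pattern (level of at least 0.5 in 1 label), and genes of the marker lists, picked after their values were seen.

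Levels, shares, exact intervals and thinning to 1000 UMIs were computed with Python 3.11.15, numpy 2.4.6, scipy 1.17.1 and pandas 2.3.3. For each of 6 classes, and, as an addition after the data were seen, each label with at least 20 cells in every library, counts were summed per library and tested with edgeR 4.0.16 in R 4.3.3 (TMM, filterByExpr, quasi-likelihood test, Benjamini-Hochberg adjusted p under 0.05 over all genes of that fit). Each fit leaves 1 residual degree of freedom, and the single *Angpt1*ΔNC library is taken to vary as the 2 controls do. Nothing in the labels gives the number of independent animals behind the spread, and p-values then measure the spread between these pools. DESeq2 1.42.0, DESeq2 size factors in edgeR, no filter, male-typed cells and leaving out each control were alternatives. Values without a control are plain differences of log2 summed levels with a count added, and not the edgeR fit. Where UMIs are few the added count makes them smaller in size than the fitted values. On simulated data with 200 genes changed 4-fold, edgeR recovered 70% of them in cluster 7, 61.5% in cluster 1 and 82% in the endothelium, and over all 38 fits from 0% (TM9) to 91.5%. Promoter windows are from RefSeq (GRCm38.p6) and gene positions from GENCODE M21. Figures were drawn with matplotlib 3.10.9.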

Additional observations from a re-analysis of the deposited data

Results flagged for a closer look

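The genotype difference of *Car3* was not the same in all labels. In 1 edgeR fit over both labels with the library as a block, added after the data were seen, the log2 difference between genotypes in TM4 minus that in TM1 was -4.21 (adjusted p = 0.00451 over 10672 genes, of which 156 were called). For cluster 13 minus TM1 it was -5.50 (adjusted p = 0.0258 over 8893 genes, of which 26 were called). TM1 had 1, 3 and 14 *Car3* UMIs in control replicate 1, control replicate 2 and *Angpt1*ΔNC, with 8 positive cells of 115 in *Angpt1*ΔNC, so both values rest on few counts. The labels were picked for *Car3* calls of opposite direction, so these tests are not independent of that choice.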

How the results depend on the processing

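The counts of genes called between genotypes moved with the tool and the filter. With DESeq2 they were 167 in place of 904 in cluster 1, 84 in place of 145 in TM2, 636 in place of 1251 over the stromal labels, 431 in place of 706 in clusters 4 and 5 and 257 in place of 1250 in the endothelium. DESeq2 size factors in edgeR left 52 in TM2. Without the filter on low counts there were 626 in place of 77 in cluster 7, 550 in TM2, 2441 over the stromal labels and 1814 in clusters 4 and 5. Over male-typed cells there were 21 in cluster 7 and 465 in clusters 4 and 5, and cluster 1 could not be fitted with them. Of the 11 gene and label pairs called, counted after the data were seen, DESeq2 called 5, and male-typed cells gave 7 pairs, 4 of them among the 11. No share over all genes was taken beside these pair counts. The cause was not tested.

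The level of *Car8* in EC3, 4.38 ± 0.0823 (SD of 2 controls), was 4.24 from summed UMIs, 4.75 after thinning and 4.60 without hemoglobin-positive cells. That of *Car12* in cluster 1, 1.66, was 2.103 from summed UMIs and 1.58 without hemoglobin-positive cells. That of *Car13* in cluster 2, 0.923, was 0.422 after thinning and 0.952 without hemoglobin-positive cells. The thinned value came from a single random draw that left a *Car13* UMI in few of the 56 and 41 control cells. It therefore cannot show whether the level depends on depth. Over male-typed cells 9 of 25 gene and class pairs and 13 of 68 gene and label pairs turned their sign, none of them called over all cells. Among the pairs that turned over these cells or without a control were *Car3* in TM2 (-1.67 over male-typed cells, -0.50 without control replicate 1, against 1.45 without control replicate 2), *Car2* in TM2 (-0.085 over male-typed cells) and *Car3* over the stromal labels (-1.66 over male-typed cells, -0.30 without control replicate 1, against 1.29 without control replicate 2).

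No paired analysis was possible because the labels pair neither control pool with the single *Angpt1*ΔNC pool. With 1 *Angpt1*ΔNC pool that also differs in sex, a difference between pools cannot be told apart from one between genotypes. At these depths a *Car4* level near 0.2 left most positive cells with 1 UMI, and 17 *Angpt1*ΔNC cells set the precision in cluster 1.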

Other observations

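In TM2, *Car2* and *Car3* were found together in 2.47%, 3.17% and 7.69% of cells (control replicate 1, control replicate 2 and *Angpt1*ΔNC), where the product of the separate shares is 0.943%, 2.45% and 4.79%. The TM2 cells with a *Car2* UMI had medians of 7523, 7834 and 8166 UMIs, and those without had 7022, 7203 and 7445. In cluster 7, *Car2* and *Car14* were found together in 20.6%, 13.1% and 28.8% of cells, where the product is 20.2%, 10.3% and 23.7%. The median UMIs there were 8137.5, 7602.5 and 10706 with a *Car2* UMI and 7557, 6791 and 8102 without. The part of depth in these values was not tested.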
